A study of Mus musculus with 9 samples.

Results

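The genes described here are 10 products of macrophages that are commonly read as signs of alternative activation or of the uptake of debris: the scavenger receptors Cd36, Msr1, Marco and Cd163, the secreted macrophage protein Cd5l, the enzyme arginase 1 (Arg1), the secreted lectin Chil3 (also called Ym1), the secreted protein Retnla (also called Fizz1), the mannose receptor Mrc1 and the interleukin-4 receptor alpha chain Il4ra. They were listed by name, and all 10 were found among the 52550 genes of the count table. RNA was measured by mRNA sequencing in spinal cord of female C57BL/6N mice at day 7, with 3 mice in each of 3 groups. Sham mice had the laminectomy alone, SCI mice had a contusion of the thoracic cord and vehicle (DMSO), and SCI+FIPI mice had the same contusion and FIPI, a small molecule that inhibits phospholipase D. Each sample was a segment of whole cord around the injury site, so it held nerve cells, glia, meninges, vessels and immune cells together. The libraries held 20806000 to 24582377 counts, and 18699 genes had enough counts to be tested, among them 9 of the 10 genes described here. The exception was Retnla. Arg1, Cd5l and Marco passed the filter on low counts through the injured groups alone.

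Macrophages that meet interleukin-4 or interleukin-13 signal through Il4ra to the transcription factor STAT6, and Arg1, Chil3, Retnla and Mrc1 are the classic mouse target genes of that pathway. Scavenger receptors bind modified lipoproteins, dying cells and other debris, and in the injured cord macrophages and microglia take up large amounts of broken myelin. Several of these genes also depend on other signals, among them lipid load, hypoxia and glucocorticoids, so none of them reports a single pathway.

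Levels are given as CPM, the counts of a gene scaled to the total of its library with trimmed-mean factors. A gene was called when its log2 fold change was at least 0.5 in either direction and its adjusted p in the quasi-likelihood test of edgeR was below 0.05. In SCI against Sham, 9 of the 9 genes tested were called higher, where 24.4% of all genes tested were called higher. Every SCI mouse lay above every Sham mouse for all 9, a pattern that 35.6% of all genes tested shared. The median log2 fold change was 4.84 over the 9 genes and -0.003 over all genes tested. Without Arg1, Cd5l and Marco, which passed the filter through the groups where they are high, 6 of 6 were called higher and the median was 2.55. In SCI+FIPI against SCI none of the 9 was called. In SCI+FIPI against Sham 9 of 9 were called higher, against 21.2% of all genes tested. Without Arg1, Cd5l and Marco, 6 of 6 were called higher in SCI+FIPI against Sham, with a median of 2.26. In whole tissue, more cells of a type and more RNA of a gene in each cell cannot be told apart. The 12 markers of macrophages and microglia as a whole were all called higher in SCI against Sham, and their summed level was 604 to 881 CPM in Sham mice and 8972 to 10909 CPM in SCI mice. Markers of resident cord cells were present in every library, with 6 oligodendrocyte markers at 22750 to 33982 CPM in sum. The 9 neuron markers were all called lower in SCI against Sham, and 6 of them were called higher in SCI+FIPI against SCI. Over all genes tested, 4209 of 18699 were called lower in SCI against Sham and 2.36% higher in SCI+FIPI against SCI.

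**Figure D1:**
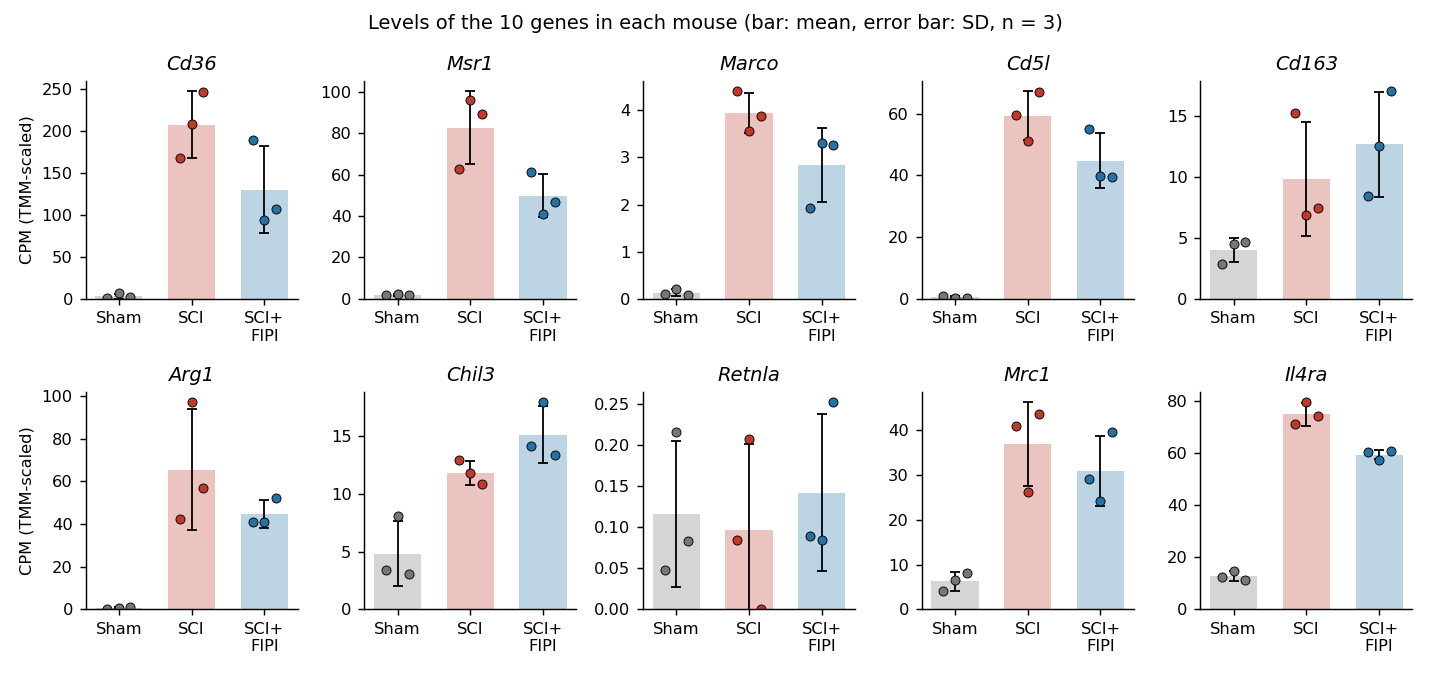
CPM of the 10 genes in each of the 9 mice, with its own linear scale for each gene; points are mice, bars are means and error bars are SD (n = 3). For 9 genes the SCI and SCI+FIPI mice sit above all Sham mice, whereas Retnla reaches at most 0.252 CPM in any mouse.

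By size of the difference between SCI and Sham, the receptors Cd36, Msr1 and Marco ranked 16, 26 and 48 among all genes tested. Cd36, a receptor for oxidized lipoproteins, fatty acids and thrombospondin, lies on chromosome 5 (GRCm38, 17781690 to 17888801) and was at 1.39, 6.39 and 1.504 CPM in Sham mice 1 to 3. It was at 168, 209 and 247 CPM in the SCI mice and at 189.7, 94.1 and 106 CPM in the SCI+FIPI mice. The injured mice of both groups were far above Sham, SCI+FIPI mouse 1 lay inside the SCI range, and the other 2 lay below it. The log2 fold change of SCI against Sham was 6.05 (SE 0.591, adjusted p = 0.00011 in edgeR). Without Sham mouse 2, the highest of the Sham mice, it was 7.16. The summed level of 7 fat cell markers, which include Fabp4, was 8.98 to 17.3 CPM in Sham mice and 37.0 to 87.8 CPM in SCI mice. That of 8 endothelial markers was 470 to 505 CPM in Sham mice and 819 to 893 CPM in SCI mice. The part of cells other than macrophages in the Cd36 values was not tested.

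Msr1, the class A macrophage scavenger receptor for acetylated lipoproteins, lies on chromosome 8 (39581685 to 39642673). It was at 1.63, 2.16 and 1.67 CPM in Sham mice, 62.7, 96.1 and 89.1 CPM in SCI mice and 61.3, 41.2 and 46.8 CPM in SCI+FIPI mice. The 3 groups did not overlap for this gene, although the lowest SCI mouse and the highest SCI+FIPI mouse nearly met. It rose by a log2 fold change of 5.50 in SCI against Sham (SE 0.277, adjusted p = 5.3e-07 in edgeR).

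Marco, a class A receptor of a few macrophage populations such as those of the lung and the splenic marginal zone, lies on chromosome 1 (120474538 to 120505024) and had the fewest reads of the receptors after injury. Its counts were 2, 5 and 2 reads in Sham mice, 105, 86 and 92 reads in SCI mice and 43, 78 and 78 reads in SCI+FIPI mice. In CPM the SCI mice were at 4.403, 3.56 and 3.88 and the SCI+FIPI mice at 1.92, 3.31 and 3.27, so that each treated mouse was below each vehicle mouse. It rose by a log2 fold change of 4.84 in SCI against Sham (SE 0.366, adjusted p = 2.6e-08 in edgeR), with a Sham level that rested on a few reads.

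Cd5l, a soluble member of the scavenger receptor cysteine-rich family that macrophages secrete and that is also called AIM, had the largest difference of the 9. Its gene lies on chromosome 3 (87357881 to 87371073), and it was at 0.766, 0.346 and 0.125 CPM in Sham mice, 59.5, 51.2 and 67.0 CPM in SCI mice and 55.1, 39.8 and 39.5 CPM in SCI+FIPI mice. SCI differed from Sham by a log2 fold change of 7.20 (SE 0.334, adjusted p = 1.6e-07 in edgeR), which ranked 3 by size among all genes tested. Without Sham mouse 1, the highest of the Sham mice, it was 7.95.

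Cd163, the receptor for haemoglobin bound to haptoglobin and a marker of perivascular and meningeal macrophages, changed far less. It lies on chromosome 6 (124304656 to 124330527) and was at 2.87, 4.49 and 4.64 CPM in Sham mice, 15.2, 6.91 and 7.43 CPM in SCI mice and 8.45, 12.5 and 17.0 CPM in SCI+FIPI mice. SCI mouse 1 was well above the other 2 SCI mice. In SCI against Sham its log2 fold change was 1.29 (SE 0.414, adjusted p = 0.026 in edgeR), and it was 0.83 without SCI mouse 1. The call was lost without Sham mouse 1, 2 or 3, with adjusted p of 0.0765, 0.0576 and 0.0568. It was also lost with limma-voom (adjusted p = 0.0584) and with no filter on low counts (adjusted p = 0.0689), and DESeq2 gave an adjusted p of 0.0043.

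Of the products of alternative activation, Arg1, which splits arginine into ornithine and urea and so competes with nitric oxide synthase, stood apart by size. It lies on chromosome 10 (24915221 to 24927484) and was at 0.096, 0.648 and 1.09 CPM in Sham mice, 42.2, 97.0 and 57.0 CPM in SCI mice and 41.0, 40.7 and 52.0 CPM in SCI+FIPI mice. The log2 fold change of SCI against Sham was 6.68 (SE 0.577, adjusted p = 4.7e-05 in edgeR), and without Sham mouse 3 it was 7.39. SCI mouse 2 had the highest Arg1 level of the 9 mice. The same mouse had the highest levels of Ly6c2, a monocyte marker (13.9 CPM against 2.85 and 1.56 in the other SCI mice), of Plac8 (17.5 against 7.09 and 7.72 CPM) and of the nitric oxide synthase Nos2 (9.68 against 1.51 and 2.19 CPM). Of 6 blood monocyte markers, 4 were called higher in SCI against Sham, where 24.4% of all genes tested were. The summed level of the 6, which include Ly6c2 and Plac8, differed less, at 140, 195 and 151 CPM in SCI mice 1 to 3. SCI mouse 2 also had the highest level of the muscle gene Myh4 (9.43 against 0.126 and 0.169 CPM). The summed level of 6 skeletal muscle markers, which include Myh4, was 10.7, 39.1 and 12.9 CPM in SCI mice 1 to 3. It was 7.19 to 32.0 CPM in Sham mice and 19.1 to 31.0 CPM in SCI+FIPI mice. The part of these differences between mice in the Arg1 value was not tested.

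Chil3, a chitinase-like lectin made by alternatively activated macrophages and also by neutrophils and their marrow precursors, lies on chromosome 3 (106147554 to 106167564) and was at 3.40, 8.08 and 3.05 CPM in Sham mice. It was at 12.9, 11.8 and 10.8 CPM in SCI mice and at 14.1, 18.0 and 13.4 CPM in SCI+FIPI mice, so that the 3 groups did not overlap. The log2 fold change of SCI against Sham was 1.29 (SE 0.337, adjusted p = 0.0097 in edgeR). Without Sham mouse 2 it was 1.88, and without Sham mouse 3 it was 1.03. The summed level of 12 neutrophil and marrow markers was 62.5 to 143 CPM in Sham mice, 142 to 148 CPM in SCI mice and 93.5, 216 and 212 CPM in SCI+FIPI mice 1 to 3. Of these markers 11 could be tested and 1, Csf3r, was called higher in SCI against Sham, where 24.4% of all genes tested were. Ly6g, which defines neutrophils, had at most 12 reads in any mouse, and the part of such cells in the Chil3 values was not tested.

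Reads of Chil3 could also belong to a close copy. In the GENCODE M21 transcripts, 29.4% of the 50-base stretches of Chil3 occurred also in Chil4 or the pseudogene Gm6522. Chil4, which lies beside Chil3 on chromosome 3, had 4 reads or fewer in every mouse. The longest stretch of coding sequence that both genes shared was 116 bases long, in exon 5 of each. It lies on the minus strand of GRCm38 at chr3:106160371-106160486 in Chil3 and at chr3:106210476-106210591 in Chil4. The sequences, taken from GENCODE M21 and read 5′ to 3′ with the shared run in capitals and 15 bases on each side, are shown because a short read from inside the run matches both genes, and 143 of the 146 bases were identical.
Chil3: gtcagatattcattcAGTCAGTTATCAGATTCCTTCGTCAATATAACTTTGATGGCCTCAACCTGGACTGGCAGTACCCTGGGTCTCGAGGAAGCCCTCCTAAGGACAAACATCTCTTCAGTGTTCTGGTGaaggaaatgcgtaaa
Chil4: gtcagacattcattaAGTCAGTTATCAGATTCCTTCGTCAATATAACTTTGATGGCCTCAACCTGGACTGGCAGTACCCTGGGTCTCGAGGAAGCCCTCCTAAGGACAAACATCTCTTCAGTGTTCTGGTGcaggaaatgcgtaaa

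Retnla, a small secreted protein that is a strong target of STAT6 in several tissues, was close to absent from these libraries. Its counts were 1, 5 and 2 reads in Sham mice, 2, 5 and 0 reads in SCI mice and 2, 2 and 6 reads in SCI+FIPI mice, and the groups overlapped. A count of 0 allows up to 3 reads, or 0.127 CPM, in SCI mouse 3, as far as counting error goes. The gene lies on chromosome 16 (48842551 to 48844461) and did not pass the filter on low counts. A difference between groups was not detectable at this depth.

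Mrc1, the mannose receptor CD206, is a target of interleukin-4 and at the same time a standing marker of perivascular and meningeal macrophages. It lies on chromosome 2 (14229392 to 14332057) and was at 4.02, 6.57 and 8.11 CPM in Sham mice, 41.0, 26.2 and 43.5 CPM in SCI mice and 29.1, 24.2 and 39.5 CPM in SCI+FIPI mice. Between SCI and Sham its log2 fold change was 2.55 (SE 0.332, adjusted p = 0.00033 in edgeR). The 7 other markers of such border macrophages, among them Pf4, Siglec1 and Lyve1, were also all called higher in SCI against Sham, and their summed level was 17.9 to 24.01 CPM in Sham mice and 303 to 327 CPM in SCI mice. Of all genes tested, 24.4% were called higher.

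Il4ra, the chain that interleukin-4 and interleukin-13 receptors share, was the most even of the 9 between mice of a group. It was at 12.6, 14.6 and 11.2 CPM in Sham mice, 71.0, 79.6 and 74.1 CPM in SCI mice and 60.3, 57.3 and 60.7 CPM in SCI+FIPI mice, with no overlap between the 3 groups. The log2 fold change of SCI against Sham was 2.55 (SE 0.0879, adjusted p = 3.6e-11 in edgeR), the same to 2 decimals as that of Mrc1 with a much smaller error. On chromosome 7 (125552120 to 125579474), 9.51% of its exon bases overlap Gm44876 on the opposite strand, and whether reads were counted by strand is not given in the sources used here.

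Per length of exon, the 10 genes took a different order in injured and uninjured cord. In FPKM, which is CPM divided by the exon length in kilobases, the Sham level was highest for Chil3 (2.97 ± 1.72, SD, n = 3) and Il4ra (2.13 ± 0.292), whose values overlapped. Mrc1 (0.978 ± 0.324), Cd36 (0.862 ± 0.796) and Cd163 (0.733 ± 0.179) came next and also overlapped. Msr1 (0.287), Arg1 (0.274), Cd5l (0.203), Retnla (0.193) and Marco (0.0685) were the lowest in Sham cord. In SCI cord Cd36 was highest at 57.8 ± 11.01 FPKM, above every value of the other genes. Arg1 (29.4 ± 12.7) and Cd5l (29.1 ± 3.89) followed and overlapped, and so did Msr1 (13.02 ± 2.78) and Il4ra (12.5 ± 0.722). Chil3, the first in Sham cord, came sixth in SCI cord with 7.26 ± 0.636 FPKM, and overlapped with Mrc1 (5.79 ± 1.47). Marco (2.05 ± 0.222) and Cd163 (1.80 ± 0.853) overlapped as well, and Retnla (0.162) was last. In SCI+FIPI cord the first 3 by mean were again Cd36 (36.2 ± 14.5), Cd5l (22.0 ± 4.38) and Arg1 (20.0 ± 2.89), with Cd36 and Cd5l overlapping.

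The comparison of SCI+FIPI with SCI asked whether the inhibitor altered these levels after injury. None of the 9 genes tested was called by edgeR, where 2.36% of all genes tested were called higher and 0.695% lower. At an unadjusted p below 0.05 there were 2 of the 9, Msr1 and Il4ra, where 25.2% of all genes tested passed that limit, while DESeq2 called 1, Msr1, and limma-voom called none. The fitted log2 fold change was below 0 for 7 of the 9 and above 0 for Chil3 and Cd163, with a median of -0.405 against -0.001 over all genes tested. Every SCI+FIPI mouse lay below every SCI mouse for 3 genes, Msr1, Marco and Il4ra, and above for 1, Chil3. Among all genes tested, 14.5% had every treated mouse lower and 15.7% every treated mouse higher.

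Msr1 came nearest to a call, at a log2 fold change of -0.73 (95% interval -1.18 to -0.28, adjusted p = 0.0556 in edgeR). The call turned on single mice and on the tool: the adjusted p was 0.0060 without SCI mouse 1, 0.0218 without SCI+FIPI mouse 1 and 0.00031 with DESeq2, and it was 0.196 without SCI mouse 3. Il4ra was at -0.33 (95% interval -0.50 to -0.17), and its adjusted p of 0.0179 in edgeR passed the limit whereas its size did not reach the fold limit. By adjusted p alone, 3.58% of all genes tested were lower.

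The other intervals were wide. Cd36 was at -0.68 (95% interval -1.69 to 0.34), Arg1 at -0.55 (-1.39 to 0.28), Marco at -0.47 (-0.97 to 0.02), Cd5l at -0.40 (-0.83 to 0.02) and Mrc1 at -0.25 (-0.94 to 0.43) on the log2 scale. Chil3 was at 0.36 (-0.36 to 1.07) and Cd163 at 0.37 (-0.52 to 1.25). The adjusted p of these 7 ranged from 0.224 to 0.651 in edgeR, and all but Marco and Chil3 overlapped between the groups. The difference in Arg1 was -0.16 without SCI mouse 2, and that in Cd36 was -1.05 without SCI+FIPI mouse 1. The 12 macrophage and microglia markers all had log2 fold changes below 0 in the same comparison, with a median of -0.32 and a summed level of 6751 to 8391 CPM in SCI+FIPI mice. None of the 12 was called by edgeR, DESeq2 or limma-voom, and 4 had an unadjusted p below 0.05.

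**Figure D2:**
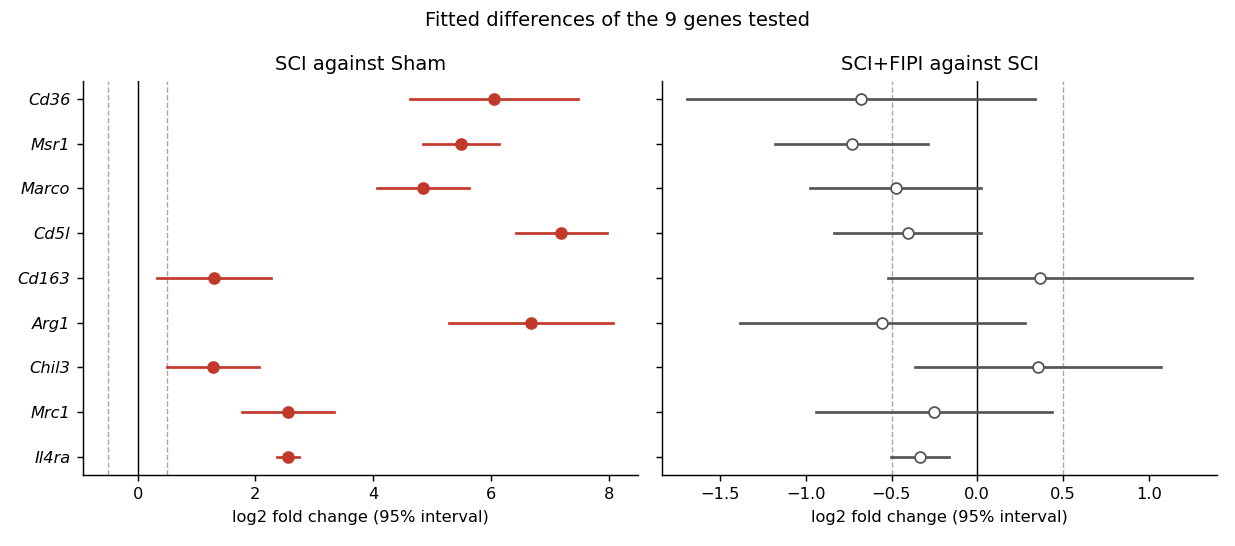
Fitted log2 fold changes of the 9 genes tested with 95% intervals, for SCI against Sham on the left and SCI+FIPI against SCI on the right, on different scales; filled red points were called, open points were not, and dashed lines mark the fold limit of 0.5. All 9 are called on the left, from 1.29 to 7.20, and none on the right, where only the intervals of Msr1 and Il4ra lie wholly below 0.

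Against Sham, the treated mice were still far higher for these genes. The log2 fold changes of SCI+FIPI against Sham were 6.79 for Cd5l, 6.13 for Arg1, 5.38 for Cd36, 4.76 for Msr1, 4.37 for Marco, 2.30 for Mrc1, 2.22 for Il4ra, 1.66 for Cd163 and 1.64 for Chil3. Their adjusted p in edgeR lay between 1.9e-10 for Il4ra and 0.0096 for Cd163. This comparison and the other 2 share mice, so their values are given side by side only.

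Since macrophage and microglia markers moved with injury, each gene was also set against their mean log2 level in the same mouse. That mean was 3.20 higher in SCI than in Sham mice. Relative to it, the log2 level was higher in every SCI mouse than in every Sham mouse for 5 genes: Cd5l by 3.91, Arg1 by 3.64, Cd36 by 3.17, Msr1 by 2.23 and Marco by 1.06. Among all genes tested, 0.615% had every SCI mouse higher on this measure. Cd5l, Arg1 and Marco passed the filter through the injured groups alone, so only Cd36 and Msr1 can be set beside that share. It was lower in every SCI mouse for 3 genes, by a difference of -1.98 for Cd163, -1.79 for Chil3 and -0.65 for Il4ra, as it was for 96.6% of all genes tested, so a lower relative level is no particular feature of these 3. Mrc1 differed by -0.63 and overlapped between the groups (exact permutation p = 0.4, two-sided). The exact two-sided permutation p of the 8 separated genes was 0.1, the smallest that 3 mice against 3 allow.

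These directions depended in part on the markers. With Csf1r, Adgre1 and Itgam alone, Cd5l (4.81), Arg1 (4.54), Cd36 (4.07), Msr1 (3.12) and Marco (1.95) were again higher in every SCI mouse and Chil3 (-0.89) lower in every one. Of all genes tested, 2.34% were higher and 92% lower in every SCI mouse. Because of the filter, the 2.34% can again be set beside Cd36 and Msr1 only. Il4ra turned from -0.65 to 0.24, Mrc1 from -0.63 to 0.27, and Cd163 at -1.09 then overlapped between the groups. Of the exon bases of Itgam, 68.67% overlap Gm49368 on the same strand. Of those of Csf1r, 15.12% overlap Hmgxb3 on the opposite strand. How reads in such overlaps were counted is not given. In SCI+FIPI against SCI the marker mean was 0.34 lower, and Chil3 was the only gene of the 9 whose relative level separated the groups, at 0.69 higher in SCI+FIPI (exact permutation p = 0.1). Of all genes tested, 53.2% had every treated mouse higher and 0.743% every treated mouse lower on this measure. Cd163 was 0.74 higher with overlap (exact permutation p = 0.2), and the other 7 differed by -0.38 to 0.09.

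**Figure D3:**
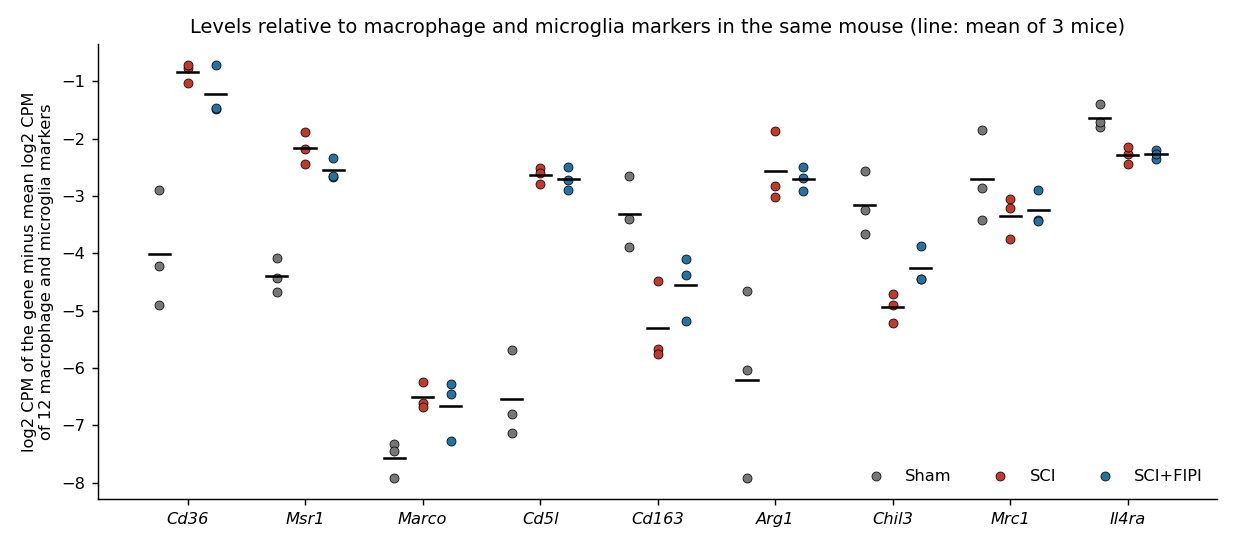
Log2 CPM of each gene minus the mean log2 CPM of 12 macrophage and microglia markers in the same mouse; points are mice and black lines are means of 3 mice. Cd36, Msr1, Marco, Cd5l and Arg1 are higher in all injured than in all Sham mice, and Cd163, Chil3 and Il4ra are lower.

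The rest of the interleukin-4 and interleukin-13 pathway was read from a list of 14 genes, of which 12 could be tested. In SCI against Sham 8 were called higher and 1 lower, where 24.4% of all genes tested were called higher and 4209 of 18699 lower. The largest rises were in Il2rg (log2 fold change 2.82), the common gamma chain that pairs with Il4ra, in the feedback inhibitor Socs3 (2.71), in the phosphatase Ptpn6 (2.71) and in Stat6 (2.24), the factor that carries the signal to the nucleus. Of the exon bases of Il2rg, 30.5% overlap Gm20489 on the same strand, and how reads there were counted is not given. The gene called lower was Il4, with 17.6, 19.7 and 16.05 CPM in Sham mice against 9.48, 9.80 and 8.18 CPM in SCI mice (log2 fold change -0.96). Its gene model has 7 exon blocks on chromosome 11 (53602982 to 53618669), and whether reads were counted by strand is not given. Which part of the model the reads came from, and whether they were transcripts of the cytokine, was not tested. Il13 and the decoy receptor Il13ra2 had too few counts to be tested. In SCI+FIPI against SCI none of the 12 was called by edgeR, 4 had an unadjusted p below 0.05, and DESeq2 and limma-voom each called 1.

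Of 12 transcription factors tied to alternative activation, 9 were called higher in SCI against Sham, among them Cebpb (2.58), Egr2 (2.03) and the lipid-sensing receptor Pparg (1.78), and the coactivator Ppargc1b was called lower (-1.21). Of all genes tested, 24.4% were called higher in SCI against Sham, 4209 of 18699 lower there, and 0.695% lower in SCI+FIPI against SCI. In SCI+FIPI against SCI, 2 of the 12 were called lower, among them Myc (-0.56), whose call was lost without SCI mouse 2 or 3 and without any 1 of the SCI+FIPI mice (-0.61 to -0.48, adjusted p of 0.0881 to 0.140 in edgeR). Of the 13 tested among 17 other products of alternative activation, 7 were higher in SCI, led by the interleukin-1 receptor antagonist Il1rn (4.06), the lectin receptor Clec7a (3.10), Tgfb1 (3.03) and the lectin Clec10a (2.92), and Vegfa was lower (-0.85). Clec10a was called lower in SCI+FIPI (-1.01), at 3.27, 4.18 and 4.01 CPM in SCI mice against 1.21, 2.63 and 1.85 CPM in SCI+FIPI mice. That call was lost without SCI mouse 2 or 3 and without SCI+FIPI mouse 1 or 3 (-0.99 to -0.77, adjusted p of 0.0761 to 0.0872 in edgeR).

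Beside Arg1, the 11 other genes of arginine and polyamine metabolism moved in both directions. In SCI against Sham 4 were called higher, Nos2 (1.94), the polyamine acetyltransferase Sat1 (1.66), the arginine transporter Slc7a2 (0.80) and Oat (0.52), and spermine synthase Sms was called lower (-1.24). Of all genes tested, 24.4% were called higher and 4209 of 18699 lower. The Nos2 value rested on SCI mouse 2 and was 0.67 without it (adjusted p = 0.0620 in edgeR). Its call was also lost with limma-voom (adjusted p = 0.162) and without any 1 of the Sham mice (1.84 to 2.11, adjusted p of 0.0917 to 0.134 in edgeR), and that of Oat was lost without Sham mouse 1 (0.49) or SCI mouse 3 (0.50). None of the 11 was called in SCI+FIPI against SCI by edgeR, DESeq2 or limma-voom, and 3 had an unadjusted p below 0.05. The median log2 fold change of this list in SCI against Sham was 0.31.

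The other scavenger and clearance receptors were also mostly higher in SCI than in Sham cord. Of 22 listed, 21 could be tested and 17 were called higher, led by the lectin Clec4n (4.62), the lysosomal glycoprotein Cd68 (4.55), which is also among the 12 macrophage markers, Stab1 (4.51), a receptor for modified proteins and matrix fragments, and Scarf2 (2.79). Of all genes tested, 24.4% were called higher and 4209 of 18699 lower. Clec4n was among the genes that fell out when 10 counts were required in every mouse. Megf11, a relative of the engulfment receptor Megf10, was called lower (-1.26). In SCI+FIPI against SCI, Clec4n (-0.65) and Stab1 (-0.62) were called lower, where 0.695% of all genes tested were. The Clec4n call was lost without SCI mouse 2 or 3 and without SCI+FIPI mouse 1 or 2 (-0.67 to -0.47, adjusted p of 0.0620 to 0.124 in edgeR). Stab1 was at 648, 676 and 832 CPM in SCI mice and at 526, 397 and 479 CPM in SCI+FIPI mice.

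Most of the genes tested that are usually read as classical activation were also higher after injury. Of 13 tested among 17, 10 were called higher in SCI against Sham, with Il1b (3.04), Tnf (3.03), Irf5 (2.54) and the Fc receptor Fcgr1 (2.51) at the top, and none was called lower. Of all genes tested, 24.4% were called higher in SCI against Sham and 0.695% lower in SCI+FIPI against SCI. The median log2 fold change of the 13 was 2.28, against 2.44 for the other products of alternative activation. Tnf here and Clec10a there were among the genes that fell out when 10 counts were required in every mouse. Such genes were kept in the counts and medians of the lists, so the 2 medians are given side by side only. Tnf was called lower in SCI+FIPI against SCI (-1.02), and that call was lost without SCI mouse 2 or 3 and without SCI+FIPI mouse 2 or 3 (-0.99 to -0.77, adjusted p of 0.113 to 0.185 in edgeR). Nos2 is on this list and on that of arginine metabolism.

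**Figure D4:**
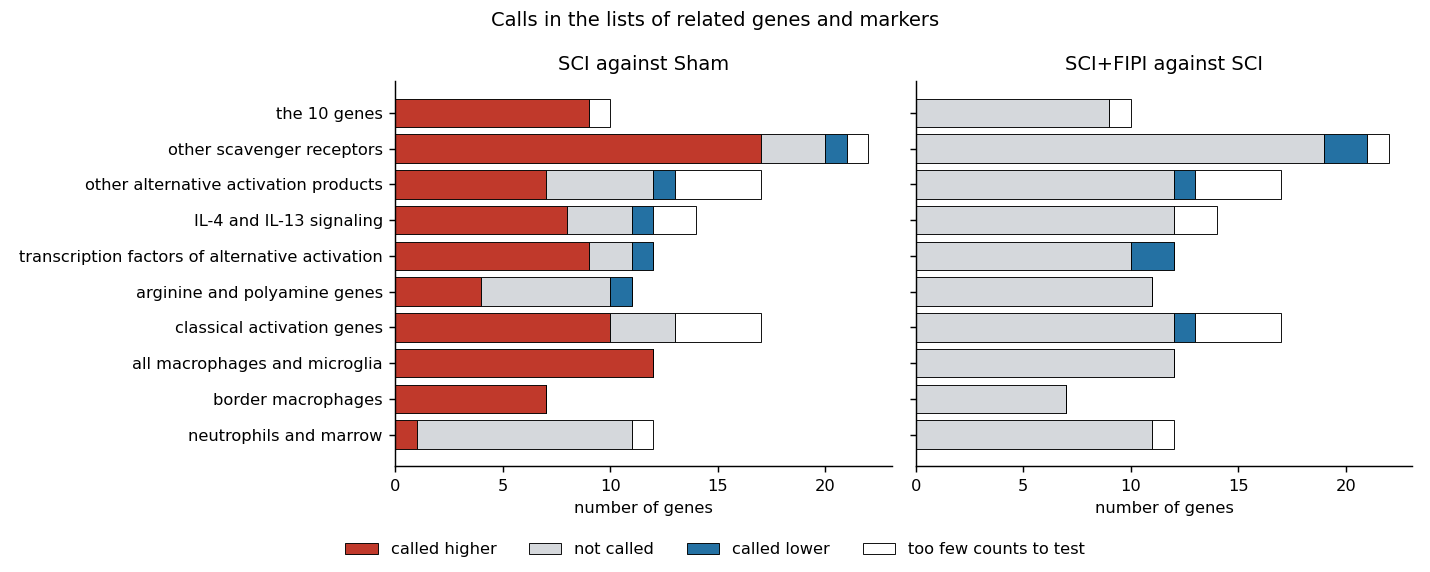
Number of genes in each list that were called higher, called lower, not called or had too few counts to test, for SCI against Sham on the left and SCI+FIPI against SCI on the right. On the left the share called higher runs from 1 of 12 neutrophil and marrow markers to 12 of 12 macrophage and microglia markers, and on the right at most 2 genes of any list shown were called.

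By level across the 9 mice, the genes most like each member were not the same for all. Likeness was the root mean square difference of log2 CPM after each gene was centred on its own mean, over 14553 genes with a mean of at least 1 log2 CPM. Il4ra was most like Plk1 (0.062), Nfam1 (0.062) and Mcm3 (0.081), and Msr1 most like Spp1 (0.237), Cd200r4 (0.241) and Wfdc17 (0.263). Mrc1 was most like Nid2 (0.163), Igf2 (0.176) and Foxd2os (0.219), and Cd163 most like Cldn1 (0.264), Card14 (0.269) and the border macrophage marker Lyve1 (0.279). For Cd36 the nearest were Atp6v0d2 (0.319), Htr2b (0.429) and the fatty acid carrier Fabp4 (0.437), and for Cd5l they were Gpnmb (0.305), Htr2b (0.731) and Atp6v0d2 (0.792). Chil3 was nearest to Il15 (0.196), Gm4332 (0.255) and Slc36a2 (0.257). Marco was nearest to Lsp1 (0.266), Cd300lb (0.306) and Tmem106a (0.326). Of the 9, Arg1 had the largest difference from its nearest gene, H19 (0.656), followed by Htr2b (0.775) and Clec4d (0.793). The few reads of Arg1, Cd5l and Marco in Sham mice enter their values, and the part of counting error in them was not tested. All 9 mice and the 3 groups enter each value, so likeness includes the contrast between injured and uninjured cord.

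Promoter windows of 300 bases, 250 before and 50 after the start in RefSeq (GRCm38.p6), were held for 8 of the 10 genes: Cd163, Cd36, Cd5l, Chil3, Il4ra, Marco, Mrc1 and Retnla. Both strands were searched for the spaced STAT6 motif (TTC, any 4 bases, GAA), the PU.1 core GAGGAA, the AP-1 motif (TGA, any base, TCA) and the TATAAA box. The STAT6 form was found in Cd5l, Cd36 and Retnla, and in 6.95% of 32851 windows of all genes. PU.1 cores were found in Marco, Mrc1, Cd5l and Retnla and in 28.28% of all windows, with 3 matches in Mrc1. TATAAA was found in Chil3 and Retnla (13.62% of all windows), and the AP-1 motif in none of the 8 (7.81%). A match is a run of letters, not a bound site, and the window leaves out enhancers. The windows of Cd5l, which had the largest rise, of Retnla, which stayed near 0 reads, and of Chil3, which rose least with Cd163, are shown 5′ to 3′ on the strand of the gene with every match in capitals. That of Cd5l is chr3:87357631-87357930 (plus strand), that of Retnla chr16:48842359-48842658 (plus strand) and that of Chil3 chr3:106167515-106167814 (minus strand).
Cd5l: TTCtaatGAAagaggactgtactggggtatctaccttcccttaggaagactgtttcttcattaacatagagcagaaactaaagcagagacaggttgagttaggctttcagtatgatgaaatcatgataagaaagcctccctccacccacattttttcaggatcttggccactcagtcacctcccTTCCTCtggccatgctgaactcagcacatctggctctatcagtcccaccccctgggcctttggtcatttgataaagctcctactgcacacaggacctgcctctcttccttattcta
Retnla: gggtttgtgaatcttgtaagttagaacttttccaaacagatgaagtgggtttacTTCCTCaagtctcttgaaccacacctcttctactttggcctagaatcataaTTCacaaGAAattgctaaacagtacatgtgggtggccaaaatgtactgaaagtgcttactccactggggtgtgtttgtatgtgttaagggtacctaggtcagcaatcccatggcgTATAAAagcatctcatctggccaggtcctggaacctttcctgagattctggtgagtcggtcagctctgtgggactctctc
Chil3: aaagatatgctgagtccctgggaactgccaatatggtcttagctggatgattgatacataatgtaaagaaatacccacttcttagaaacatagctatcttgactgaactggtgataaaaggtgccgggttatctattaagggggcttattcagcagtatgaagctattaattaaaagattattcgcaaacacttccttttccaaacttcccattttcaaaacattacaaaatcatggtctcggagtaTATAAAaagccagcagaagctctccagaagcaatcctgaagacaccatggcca
In Cd5l the STAT6 form begins 250 bases before the start, and in Retnla it lies 145 to 136 bases before the start, between a PU.1 core and the TATAAA box. The TATAAA match of Retnla lies 30 to 25 bases before the start. That of Chil3 runs from position -3 to 2, across the start itself.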

How the data were processed

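Spinal cord mRNA of 9 mice (3 Sham, 3 SCI and 3 SCI+FIPI) was compared at day 7. The authors deposited whole-number read counts per Ensembl gene. The labels name GRCm38 and R 4.2.3; the aligner, the counter, its annotation and its strand setting are not given in the sources used here. Of 52550 genes, 52403 were matched to GENCODE M21 for symbols. Counts were filtered by group with filterByExpr and scaled with TMM factors (0.985 to 1.02), and edgeR 4.0.16 in R 4.3.3 fitted all 9 mice with robust quasi-likelihood and Benjamini-Hochberg adjustment over 18699 genes. The limits for a call were 0.5 on the log2 scale in either direction and 0.05 for the adjusted p. Relative levels used a prior count of 2. FPKM used the union of exons. The code was tested on simulated data. Alternatives were other scalings and filters, DESeq2 1.42.0, limma-voom (limma 3.58.1), a replicate block and leaving out each mouse. The gene members and lists were chosen with earlier results of these data known. All 10 members are named, with at most 4 called genes per direction of each list and the 3 nearest genes of each member; Ly6c2, Plac8, Myh4, Csf3r and Ly6g were added after their values were seen. Some results are not reported here. Nothing says whether RNA was pooled, so p-values measure the spread between these samples.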

Additional observations from a re-analysis of the deposited data

How the results depend on the processing

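Under the alternatives, 359 values of the members' log2 fold changes kept their direction and their side of the threshold, 6 lost a call, 4 gained one and none changed sign. The 6 were all Cd163 in SCI against Sham (1.11 to 1.41 on the log2 scale; adjusted p = 0.0628 with the replicate block) and the 4 were all Msr1 in SCI+FIPI against SCI (-0.91 to -0.73). The number of members called in SCI+FIPI against SCI was 0 in edgeR, 1 (Msr1) with at least 10 counts in every mouse, 1 (Msr1) with DESeq2 and 1 (Il4ra) by adjusted p alone, and it ranged from 0 to 1 when a mouse was left out. The number of members whose level relative to the macrophage markers separated these groups was 1, and it ranged from 1 to 4 when a mouse was left out. Over all genes, SCI+FIPI against SCI gave 572 calls, 1800 by adjusted p alone and between 189 (SCI+FIPI mouse 2 left out) and 1038 (SCI mouse 1 left out). For the called genes of the pathway lists these settings were applied after seeing the data. Tnf in SCI+FIPI against SCI was also lost with the replicate block and with only the 2 groups compared in the fit. Nos2 and Oat in SCI against Sham were also lost with upper-quartile factors. Nos2 was lost as well with no filter on low counts and with only the 2 groups compared in the fit. Requiring 10 counts in each mouse removed Arg1, Cd5l and Marco, and also genes of the pathway lists, among them Tnf, Clec10a and Clec4n. SCI+FIPI against Sham gave 7128 calls and 11060 by adjusted p alone. Mouse numbers did not pair the samples: correlations of same-numbered deviations ran from -0.07 to 0.11, and 2 of 9 mice were most like their own number in both other groups. With the replicate block 8, 0 and 9 members were called in SCI against Sham, SCI+FIPI against SCI and SCI+FIPI against Sham, and 8744, 555 and 7115 genes. With 3 mice a group, the intervals of SCI+FIPI against SCI reach down to -1.39 for Arg1 and -1.69 for Cd36 on the log2 scale, and the few reads of Marco, Arg1 and Cd5l in Sham mice limit the size of their rise.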
